A study of Mus musculus with 2 samples.

Results

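The genes of the cytosolic ribosomal proteins were examined in the postpartum brain of TDAG51-/- dams. Members were the non-control probes on both arrays whose gene name was Rpl or Rps followed by a number, with at most 1 further letter, or Rplp0, Rplp1, Rplp2 or Rpsa, and the Rps6 kinase genes were left out. This gave 130 of 41174 probes and 78 of 27962 gene names, with 46 genes of the large subunit and 32 of the small subunit. Brain RNA of C57BL/6J dams, 8 weeks old and on postpartum day 0 (P0), had been hybridized to 2 two-colour Agilent arrays. Array 1 held TDAG51-/- (KO) labelled with Cy3 and TDAG51+/+ (WT) with Cy5, and array 2 held KO labelled with Cy3 and TDAG51-/-Tg2 (KO Tg) with Cy5. The KO Tg dams lacked the endogenous TDAG51 gene and carried a TDAG51 transgene under the BAI1-AP4 promoter, which is active mainly in cerebral cortex and hippocampus, in a line from 1 founder. The labels do not give how many dams a sample held. Each comparison had 1 array, the dyes were not swapped and no test across animals was possible, so genotype and dye cannot be told apart.

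Each ribosome is built of a small subunit, which reads the mRNA, and a large subunit, which joins the amino acids. The cytosolic ribosomal proteins are made in amounts that match one another, and their mRNAs are among the most abundant of a cell. Many of these mRNAs begin with a C followed by a run of pyrimidines, the terminal oligopyrimidine (TOP) tract, through which their translation is tied to nutrient and growth signals. In neurons, ribosomes are found in the cell body and in dendrites and axons.

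Ratios are given as log2 of KO over control after background correction and loess normalization within each array, so that a value of -1 is a 2-fold lower level in KO. Saturated probes reach the top of the scanner's range and give only a bound. A total of 17 member probes (13.1%) were saturated on at least 1 array, against 1.34% of all probes. All of these were saturated in Cy5, the control channel, 14 on array 1 and 16 on array 2, and 0 member probes were saturated in Cy3. A further 3 member probes, of Rpl3l, Rps19 and Rps2, were not well above background. The remaining 110 probes of 68 genes were above background in both channels of both arrays. The same criteria, with 1 channel of each array above background, left 32708 of all probes.

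The sequences of probes that stood far from zero, and of a probe of Rps15a that did not, show what was measured. All are the designed 60-base oligonucleotides, and their positions are those of the array design on mm7. Rps2, Rps15 and Rps6 are proteins of the small subunit, and Rps6 is the one phosphorylated by the S6 kinases. The Rps2 probe lay at chr17:22903034-22903093 (+), the Rps15 probe at chr10:80076004-80076063 (+) and the Rps6 probe at chr4:86259708-86259899 (-). The Rps15a probe lay at chr7:114037415-114037718 (-). The Rps6 and Rps15a spans are longer than the probe.
Rps2 probe: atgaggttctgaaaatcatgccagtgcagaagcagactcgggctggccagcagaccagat
Rps15 probe: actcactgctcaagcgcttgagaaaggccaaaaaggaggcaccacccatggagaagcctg
Rps6 probe: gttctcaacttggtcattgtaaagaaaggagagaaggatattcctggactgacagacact
Rps15a probe: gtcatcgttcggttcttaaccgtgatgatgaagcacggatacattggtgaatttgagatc

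Ribosomal protein probes were lower in KO than in WT, with a median log2 ratio of -0.53 over the 110 probes, a 1.44-fold lower level, while the median of all 32708 probes was 0.02. In KO over KO Tg the median of the same probes was -0.41, a 1.33-fold lower level, and that of all probes 0.02. The middle 50% of the member probes lay between -0.75 and -0.28 in KO over WT and between -0.62 and -0.19 in KO over KO Tg. A total of 101 of the 110 probes were below 0 in KO over WT, against 48.4% of all probes. In KO over KO Tg 99 were below 0, against 48.5% of all probes. Both comparisons hold KO, and the sources used here do not give whether the same extract was on both arrays, so they were not taken as independent. A total of 96 member probes were below 0 in both, against 34.8% of all probes. The shift was shared by many genes and small for each: 8 member probes were at least 2-fold lower in KO than in WT, against 4.3% of all probes, and 4 were so in KO over KO Tg, against 3.79%. At least 2-fold higher were 0 member probes in KO over WT (5.16% of all probes) and 1 in KO over KO Tg (4.86%). Between spots of the same probe the median SD of the log2 ratio was 0.063 on array 1 and 0.065 on array 2, over 245 probes with at least 5 spots. This is an error of the spots and holds no spread between dams.

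**Figure D1:**
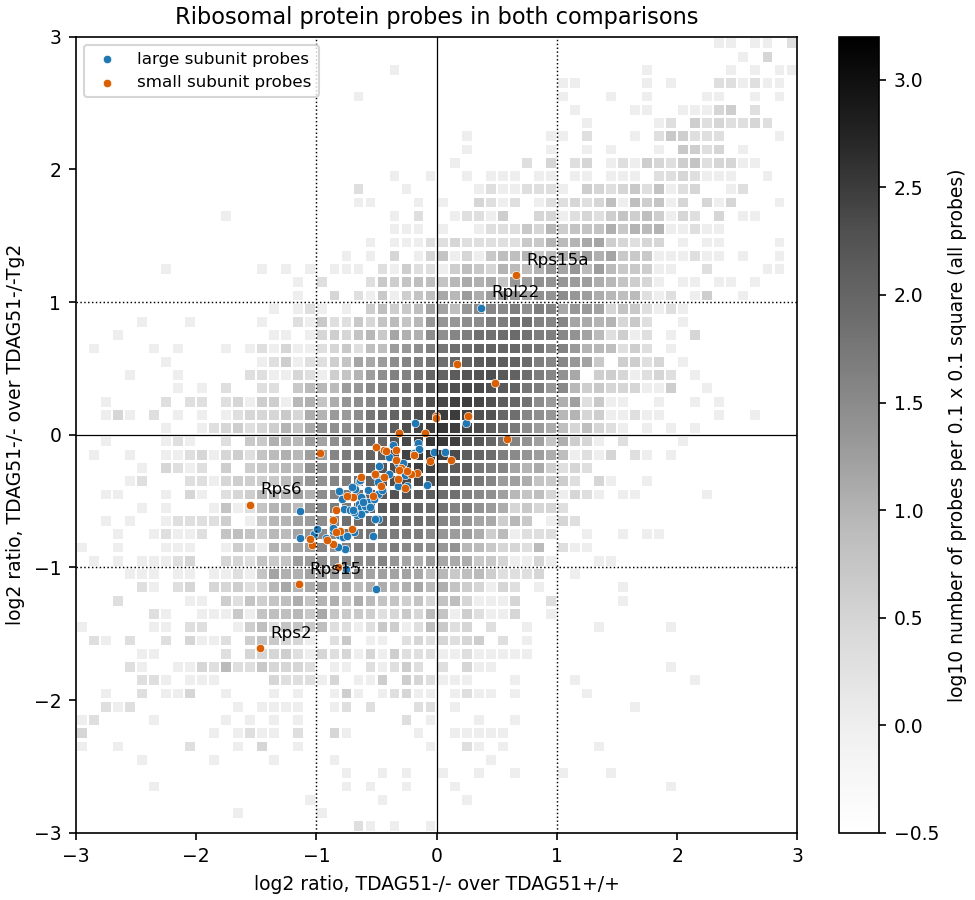
Log2 ratio of KO over WT (x axis) and of KO over KO Tg (y axis) for the 110 ribosomal protein probes that were unsaturated and above background, coloured by subunit, with dotted lines at 2-fold. Grey squares count all 32708 probes on a log10 scale, and 96 of the 110 member probes lie at the lower left, below 0 on both axes.

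Other differences between the samples moved along with the ribosomal protein genes, and their part in the result was not tested. In KO, all 5 measured marker genes of cerebellar granule cells were at least 2-fold higher in both comparisons, with medians of 1.99 and 2.26, and their summed intensity was 89002 in KO and 16217 in WT on array 1, and 88140.4 in KO and 14053 in KO Tg on array 2. All 6 measured striatal markers were below 0 in both (medians -1.21 and -1.29). Of these 4 were at least 2-fold lower in each, while Drd2 was at -0.43 and -0.09 and Ppp1r1b at -0.003 and -0.20. Also below 0 in both were 4 of 5 cortex and hippocampus markers (-0.99 and -1.40) and 4 of 4 microglia markers (-0.54 and -0.57). The remaining cortex and hippocampus marker, Camk2a, was at 0.83 and 0.86. The 3 blood genes moved in opposite directions, with medians of -3.24 in KO over WT and 1.19 in KO over KO Tg, and their summed KO intensity was 10121 on array 1 and 104561 on array 2. General brain markers were well above background, with 7 of 10 below 0 in KO over WT and 2 of 10 in KO over KO Tg. Choroid plexus markers were below 0 in 2 of 4 and 1 of 4, and 5 of 8 genes typical of liver, muscle, pancreas, skin and kidney had a probe that passed, with 2 and 4 of these below 0. Phlda1, the gene of TDAG51, had an intensity of 350 in KO and 7283 in WT, and 44.1 in KO and 50.5 in KO Tg, both not well above background, so its probe gave no check of the transgenic sample. Beta-actin (Actb), often taken as a constant gene, had 1 unsaturated probe, at -0.55 and -0.62. A brighter Actb probe, saturated in Cy5 on both arrays, had measured ratios of 0.11 and -0.03. These are upper limits only, and without normalization the same probe was at -0.61 and -0.75. In bulk tissue, fewer cells of a type and less RNA per cell cannot be told apart.

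The shift depended in size, and not in direction, on the normalization. Without any normalization 105 of the 110 member probes were below 0 in KO over WT (63.3% of all probes) and 106 in KO over KO Tg (67.4%). The median of the member probes was -0.95 in KO over WT and -0.85 in KO over KO Tg, but the median of all probes was itself -0.18 and -0.24. Relative to all probes the members were at -0.76 and -0.61 before normalization and at -0.55 and -0.43 after loess. Without normalization 49 member probes were at least 2-fold lower than in WT (7.98% of all probes) and 0 higher (3.53%), and 40 were at least 2-fold lower than in KO Tg (8.41%) and 0 higher (2.85%). Bright probes leaned toward Cy5 on both arrays before normalization: those with a Cy5 intensity of 20000 to 70000 had medians of -0.73 and -0.75 over all probes, and -1.24 and -1.06 over the 38 members among them. After loess the medians of these bright probes were -0.12 and -0.13 over all probes and -0.64 and -0.46 over the members. Dimmer members were lower as well. Those with a Cy5 intensity of 1000 to 5000 (20 probes) had medians of -0.50 and -0.44, where all probes had 0.00 and -0.01. The 15 member probes below 1000 had -0.21 and -0.30, where all probes had 0.05 and 0.05.

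**Figure D2:**
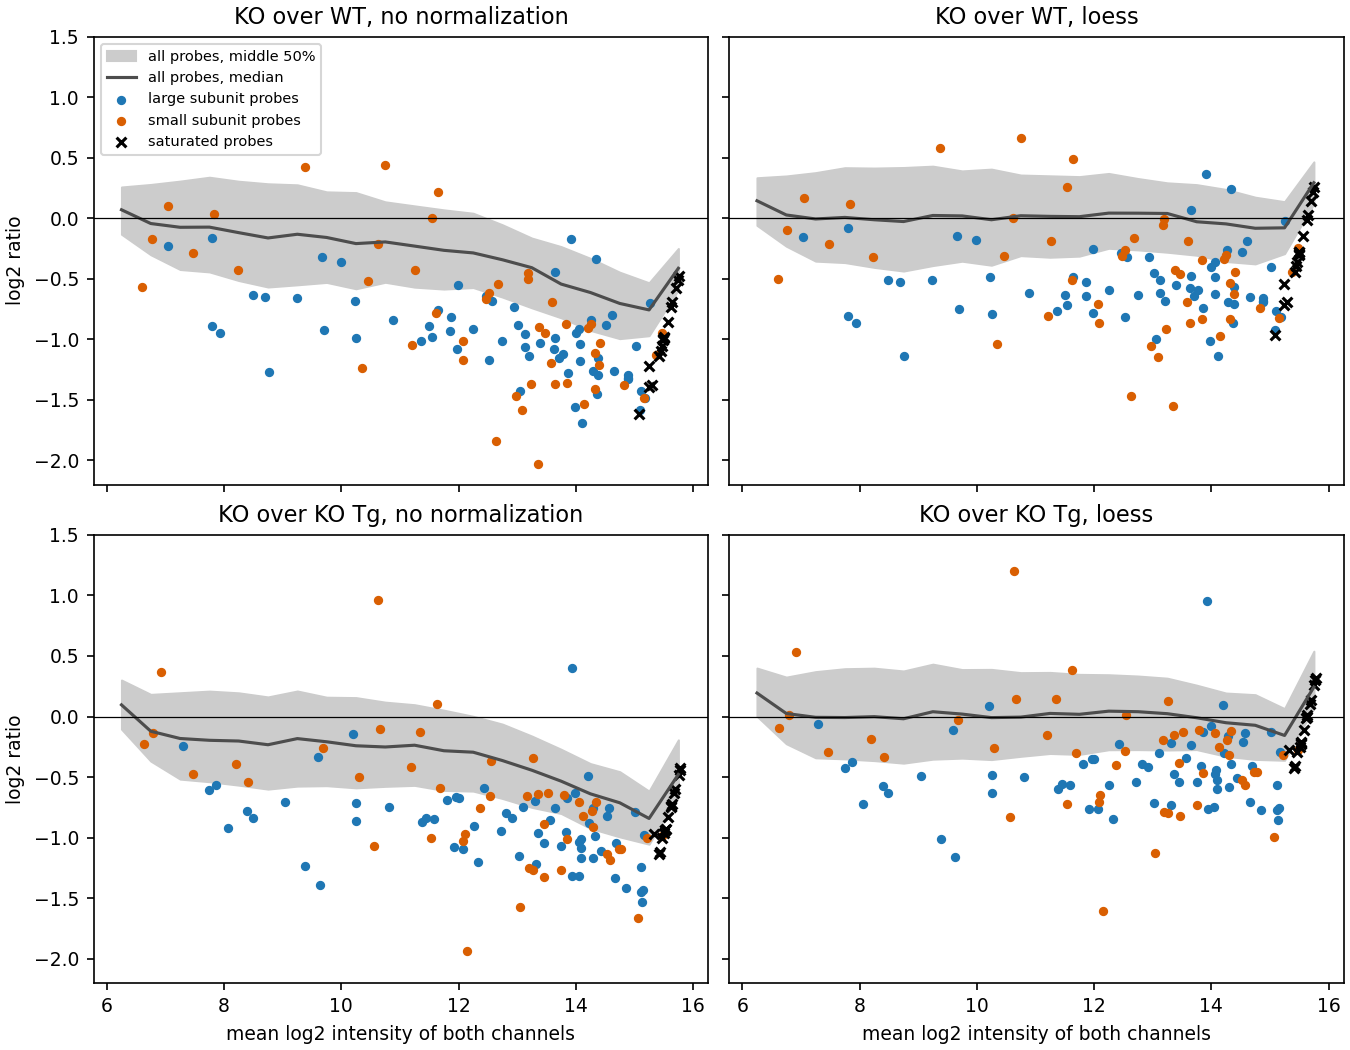
Log2 ratio (y axis) against mean log2 intensity of both channels (x axis), without normalization (left) and after loess (right), for KO over WT (top) and KO over KO Tg (bottom). The grey line and band give the median and the middle 50% of all probes, points are member probes that passed and crosses are the 17 saturated ones, and the members lie mostly below the line over the whole range, before and after loess.

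Taking 1 value for each gene, the median of its probes, 62 of 68 genes were below 0 in KO over WT and 60 in KO over KO Tg. Among the 41 large subunit genes, 39 were below 0 in both comparisons, with medians of -0.62 and -0.48. Among the 27 small subunit genes, 21 were below 0 in both, with medians of -0.43 and -0.28. No test of the difference between the subunits was possible, since the genes share both arrays.

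Of the small subunit, Rps2, which lies near the mRNA entry of the ribosome, had a probe with the lowest ratio of the 110 in KO over KO Tg and, after Rps6, the second lowest in KO over WT. Its probe had intensities of 3345 in KO and 12011 in WT on array 1, and 2303 in KO and 8875 in KO Tg on array 2. The log2 ratios were -1.47 and -1.61, a 2.77-fold and 3.05-fold lower level. A second Rps2 probe gave -0.82 and -0.999, the last just short of 2-fold. Rps15, a small subunit protein, had intensities of 5016 in KO and 15055 in WT, and 4893 in KO and 14559 in KO Tg. Its ratios of -1.15 and -1.13 made it, with Rps2, the only gene that had a probe at least 2-fold lower in both comparisons, where 1.38% of all probes were so. Rps21 (3 probes, -1.03 to -0.69 and -0.83 to -0.47) was likewise lower on every probe, but a pair of these probes shared a run of 42 bases.

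The Rps6 probe differed between the arrays in the KO channel itself. Its intensity was 5161 in KO and 21049.9 in WT on array 1, and 15925 in KO and 35102 in KO Tg on array 2, so that KO was 3.09-fold higher on array 2 than on array 1. The ratios were -1.55 and -0.53. It was the only one of the 110 member probes whose KO level differed at least 2-fold between arrays after scaling. A dim second probe of Rps6 gave -0.50 and -0.09. Rpl30, of the large subunit, differed between the arrays by -0.79 in Cy3 and -0.85 in Cy5, and its ratios within the arrays were -0.66 and -0.60.

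Probes of the same gene were mostly distinct in sequence. Of 52 such pairs among the member probes that passed, 6 pairs in 6 genes shared an unbroken run of 20 to 42 bases, and these cannot count as independent measurements. Probes that overlap with mismatches, as those of Rpl10 do, were not counted among the 6 pairs.

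Rpl10, which completes the large subunit in the cytoplasm, was measured by 2 bright probes that overlap in part of their sequence. The first had intensities of 20196 in KO and 60470.3 in WT, and 21446 in KO and 58538 in KO Tg, with ratios of -0.92 and -0.77. The second gave -0.82 and -0.76. Rpl7a had 1 probe that was not saturated, at -0.82 and -0.85. Both probes of Rpl17 were at least 2-fold lower than in WT (-1.14 and -1.02) and at -0.77 and -0.75 in KO over KO Tg. Rpl13a, known also as a regulator of translation outside the ribosome, gave -0.65 and -0.52. Rpl3, near the site where amino acids are joined, gave -0.51 and -0.30. Its muscle paralog Rpl3l was not well above background in brain.

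The probes of the receptor-like member Rpsa and of Rplp0 were near the others or closer to 0, while Rplp1 and Rplp2 could not be placed. Rpsa, a small subunit protein also known as a laminin receptor, had 2 probes, at -0.63 and -0.31 in KO over WT and at -0.32 and -0.26 in KO over KO Tg. The probe named for Rplp0, the base of the ribosomal stalk, was dim and is listed on chromosome 8. It gave -0.15 and -0.11, and whether this probe measures the main Rplp0 transcript was not tested. That probe had several spots, and the single spots ranged from -0.24 to -0.09 over 8 spots on array 1 and from -0.18 to -0.05 over 10 spots on array 2. Rplp1 and Rplp2, which form the stalk with Rplp0, were saturated in Cy5 on both arrays. Rplp1 was at least 1.32-fold lower in KO than in WT and at least 1.33-fold lower than in KO Tg. For Rplp2 the ratios after loess were above 0 (0.22 and 0.30) and gave no bound, while without normalization they were at -0.51 and -0.44. Rps3, which also acts in DNA repair, gave -0.44 and -0.42 in KO over WT and -0.12 and -0.13 in KO over KO Tg. Rps4x, encoded on the X chromosome, gave -0.34 and -0.11 on 1 probe, which is listed there. Another Rps4x probe, for which no position is listed, gave -0.86 and -0.82.

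Several members stood above 0. The only member probe at least 2-fold higher was 1 of 2 for Rps15a, a small subunit protein. It had intensities of 1992 in KO and 1462 in WT, and 2198 in KO and 1125 in KO Tg, with ratios of 0.66 and 1.20. The other Rps15a probe, whose sequence is given above, gave -0.19 and -0.15. The first probe is listed at chr7:114027381-114027440 (-), apart from the other probe of the gene. Rpl22, which binds viral and telomerase RNA besides its place in the large subunit, had probes at 0.37 and 0.07 in KO over WT and at 0.96 and -0.13 in KO over KO Tg. Rps13 had 1 probe at 0.49 and 0.39 and another at -0.44 and -0.32. Rpl32 had 1 probe, at 0.24 and 0.09. For Rps20 and Rps24 the brightest probe went the other way. One probe of Rps20 gave 0.26 and 0.14, but the other, saturated on array 2, was at -0.54 in KO over WT and at least 1.23-fold lower in KO than in KO Tg. Of the 3 probes of Rps24, a dim one gave 0.17 and 0.53 and a second -0.0012 and 0.14. The third, saturated on array 1, was at least 1.21-fold lower in KO than in WT and at -0.28 in KO over KO Tg. Without normalization Rpl32 was at -0.34 and -0.49 and the first probe of Rps20 at -0.00027 and -0.13. The Rpl22 probes were then at -0.17 and -0.44 in KO over WT and at 0.40 and -0.67 in KO over KO Tg. The first Rps15a probe stayed above 0 without normalization, at 0.44 and 0.96. Rps18, often used as a constant gene, had 3 probes, at 0.58, -0.16 and -0.06 in KO over WT and at -0.03, -0.28 and -0.20 in KO over KO Tg. Rps27l, a stress-induced paralog of Rps27, gave -0.31 and 0.01, and Rps27 itself was saturated. Ratios of a gene's probes differed by a median of 0.30 and 0.26 over the 33 genes with 2 or more probes that passed, and by over 1 in 3 genes, Rps6, Rps15a and Rpl22. In 26 of the 33 genes every such probe was below 0 in both comparisons.

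**Figure D3:**
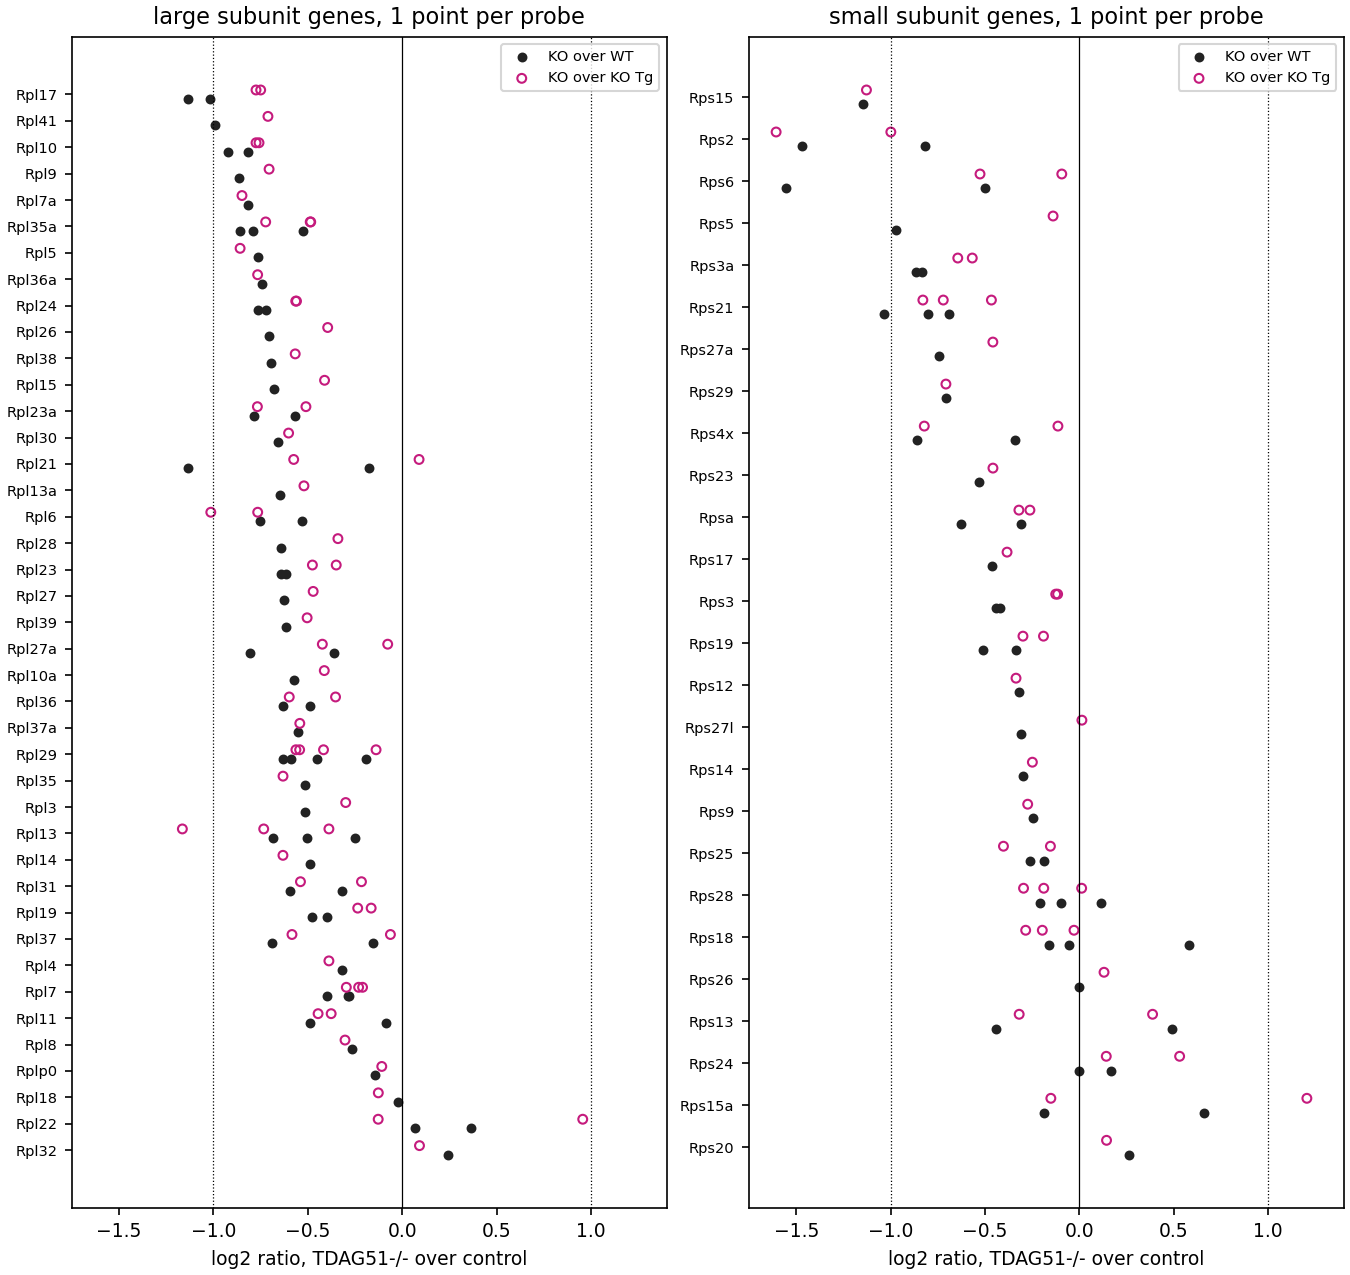
Log2 ratio of KO over control (x axis) for each unsaturated probe of 41 large subunit genes (left) and 26 small subunit genes (right), filled for KO over WT and open for KO over KO Tg, with dotted lines at 2-fold. Genes are ordered by their median in KO over WT, and 59 of the 67 genes drawn are below 0 in both comparisons by the median of their probes.

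Saturated member probes could be given at most as bounds, on the array where they were saturated. All probes of 9 genes were saturated on at least 1 array, among them Rpl12, Rplp1, Rplp2, Rps7, Rps10, Rps16 and Rps27. Of these, Rps7 was saturated on array 2 only. With Rpl3l these 9 are the 10 genes without a probe that passed. In KO over WT, 10 of the 14 saturated probes had a ratio below 0 after loess and were at least 1.01-fold to 1.62-fold lower in KO, the last being Rps16. In KO over KO Tg this held for 10 of 16, at least 1.00-fold to 1.34-fold lower, the last being Rps7. Rps10 and Rplp2 had ratios above 0 after loess in both comparisons and therefore have no bound on that scale. These counts rest on the loess step. Without normalization all 14 and all 16 saturated probes were below 0, at least 1.39-fold to 2.59-fold lower than in WT and at least 1.34-fold to 2.19-fold lower than in KO Tg, and Rps10 was at -0.58 and -0.60. Rpl36a had 2 saturated probes and 1 that was not, at -0.74 and -0.77.

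Further probes on the arrays are described as cytosolic ribosomal protein transcripts but carry another name, mostly predicted genes, and the rule did not use them. Of these, 66 were unsaturated and above background. Their medians were -0.61 in KO over WT and -0.53 in KO over KO Tg, with 58 and 59 below 0 and 57 below 0 in both. Many resemble a member in sequence, and a probe for one may bind the transcript of another.

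Single channels were set side by side across the arrays after scaling. The member probes were lower in KO Tg than in WT by a median of 0.07 on the log2 scale (-0.07, against 0.00 for all probes). Of the members 73 of 110 were below 0, and of all probes 16330 of 32708. Between the KO channels, array 2 minus array 1, the median difference was 0.04 for members and 0.01 for all probes. Here 46 of 110 members and 15768 of all 32708 probes were below 0. The spread of single probes between the KO channels (robust SD) was 0.18 for members and 0.14 for all probes. Whether this spread holds a difference between extracts is not known, and the difference between KO Tg and WT was not tested.

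Other parts of the translation machinery were measured from lists. Of the 9 genes in the elongation factor list, 8 were below 0 in KO over WT and 7 in KO over KO Tg, with medians of -0.38 and -0.20. Eef1a1, which delivers aminoacyl-tRNA, was at -0.66 and -0.75, and Eef1b2, part of the exchange factor that recycles it, at -0.98 and -0.83. These were the lowest of the list, and Eef2k, the kinase that inhibits Eef2, was at 0.29 and 0.10. Of the 53 genes with an initiation factor name (Eif followed by a digit), 23 and 20 were below 0, with medians of 0.05 and 0.08. Most belong to the factors that bring the ribosome to the start codon, but the names also took in 4 Argonaute genes, 4 kinases that inhibit initiation and Eif4enif1, which carries Eif4e into the nucleus. Without these 9, 21 and 17 of 44 were below 0, with medians of 0.03 and 0.05. Eif1 was at -0.68 and -0.79 and Eif4a3 at 0.91 and 0.84.

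Of 8 other genes with TOP mRNAs, 5 and 5 were below 0, with medians of -0.05 and -0.06. The growth-related Tpt1 was at -1.15 and -1.17 and the ribosome-bound scaffold Rack1 at -0.74 and -0.86. Naca, a chaperone at the ribosome exit, was at 0.18 and 0.25. None of the elongation and initiation factor genes was at least 2-fold changed by the median of its probes, and Tpt1 was the only such gene of the TOP list.

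The 78 mitochondrial ribosomal protein genes, whose products translate mitochondrial mRNAs, had medians of -0.11 and -0.07, with 47 and 45 below 0. Mrps18a was at -0.82 and -0.60 and Mrps23 at 0.97 and 0.85. The 25 ribosome assembly genes had medians of -0.11 and -0.04, with 15 and 14 below 0. Among them Tsr1 was at -0.62 and -0.57, Rrp9 at -0.53 and -0.69, and Gnl3 at 0.41 and 0.70. The 11 genes of RNA polymerase I and its factors, which make ribosomal RNA, had medians of -0.06 and 0.05, with 6 and 5 below 0. The 15 genes that control ribosome production had medians of 0.21 and 0.04, with 5 and 7 below 0. Of these, Eif4ebp1, which holds back cap-dependent initiation, was at -0.60 and -0.66, and the S6 kinase gene Rps6kb2 at 1.38 and 0.63. These medians are over genes, beside -0.56 and -0.41 over the 68 cytosolic ribosomal protein genes.

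**Figure D4:**
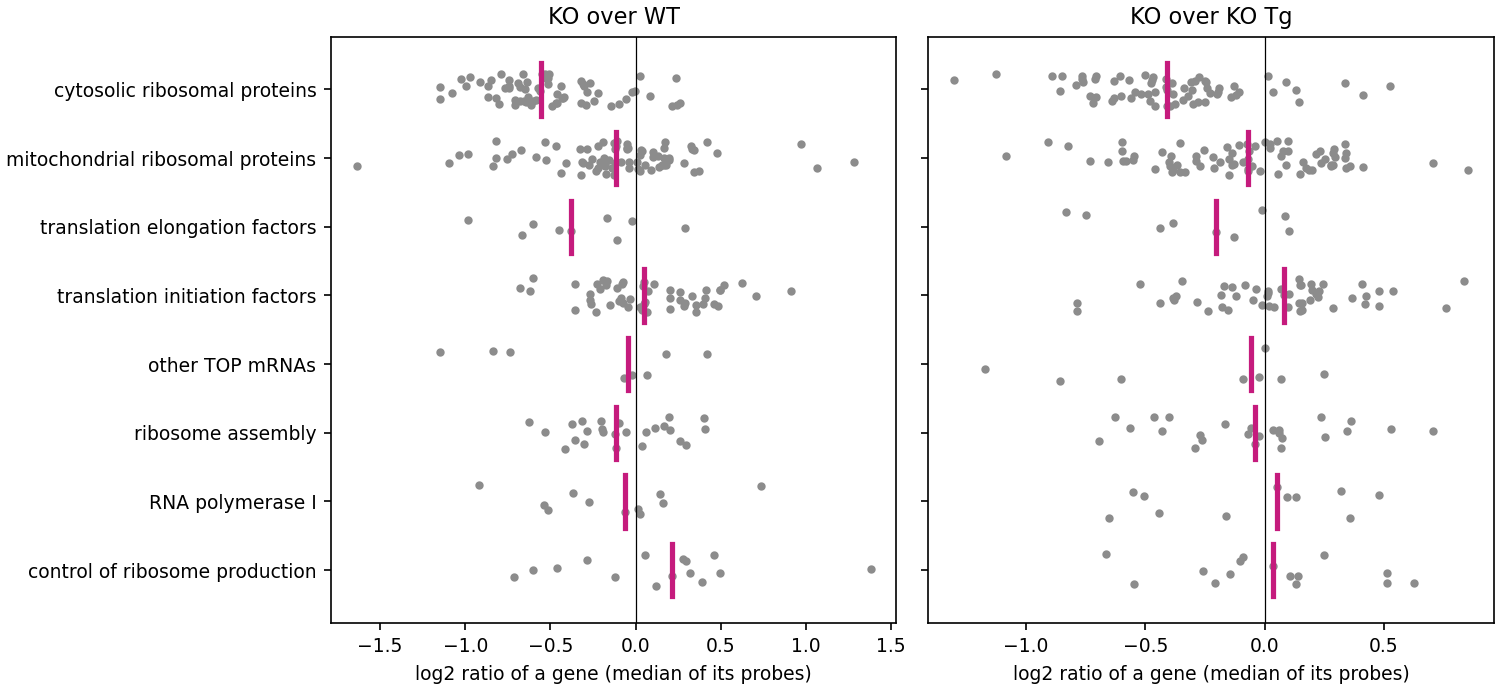
Log2 ratio of each gene (grey points, median of its probes) in KO over WT (left) and KO over KO Tg (right), by list, with the list median as a bar. The cytosolic ribosomal proteins have medians of -0.56 and -0.41, the elongation factors -0.38 and -0.20, and the bars of the other lists lie between -0.11 and 0.21.

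The start of the transcripts and the base composition of the probes were not used by the rule. RefSeq start sites (GRCm38.p6) were found for 57 of the 78 genes. At the listed start, 13 of the 57 had a C followed by at least 4 bases that are all C or T, read on the strand of the gene, against 3.01% of the 27025 genes in that table. The tract is in capitals in these windows of 15 bases before and 15 from the start, shown as examples of its length. They lie at chr2:39005117-39005146 (-) for Rpl35, chr4:86857353-86857382 (-) for Rps6, chr7:118116133-118116162 (-) for Rps15a and chr2:180257364-180257393 (+) for Rps21.
Rpl35 start: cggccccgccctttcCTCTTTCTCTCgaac
Rps6 start: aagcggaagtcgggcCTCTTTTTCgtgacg
Rps15a start: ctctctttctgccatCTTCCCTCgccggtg
Rps21 start: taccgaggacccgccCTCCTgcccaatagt

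Of the genes with a tract at the listed start, 10 had a probe that passed, with medians of -0.66 and -0.45 and 9 below 0 in each comparison. The 40 genes whose listed start had none had medians of -0.52 and -0.40, with 37 and 35 below 0. A listed start can be a few bases off, so a gene without a match here may still carry a tract. The member probes had a median GC content of 45%, and all probes 41.7%. Over all probes the ratio fell with GC content (Pearson r = -0.14 and -0.14, all on the same 2 arrays), while over the 110 member probes r was 0.01 and -0.03. Member probes with less than 40% GC had medians of -0.62 and -0.50, where all such probes had 0.12 and 0.11. Those with 50% GC or more had -0.50 and -0.33, where all such probes had -0.11 and -0.13.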

How the data were processed

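RNA of postpartum brain (P0) was measured on 2 Agilent two-colour arrays of the whole mouse genome, which shared a slide, 1 for each comparison. The deposited scanner files were written by Agilent Feature Extraction 9.5.3.1. They hold, for each spot and channel, a mean intensity and a median background intensity, and the deposited log10 ratio (Cy5 over Cy3) that follows the program's own dye normalization. The authors also deposited a log2 ratio for 35801 and 35717 probes, which differed from the scanner's Cy3 over Cy5 ratio by a median of 0.0059 and 0.0058. How these log2 values were made is not given in the sources used here. Their medians were -0.011 and -0.0097, and their scale and direction were taken from that comparison.

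Of 43379 non-control spots on each array, 375 and 300 carried the scanner's outlier mark and were dropped. Intensities were corrected by normexp (offset 50) and normalized by loess in limma 3.58.1 (with R 4.3.3 and the package data.table, version 1.17.8), and replicate spots were averaged. Tables were made with Python 3.11.15, numpy 2.4.6 and pandas 2.3.3, and figures with matplotlib 3.10.9. Probes were kept if unsaturated in both channels of both arrays and well above background in at least 1 channel of each. For a probe saturated in Cy5 the measured ratio bounds the fold when it is below 0. Channels were compared across arrays after Aquantile scaling. Lists were matched by gene name and by RefSeq symbol (GRCm38.p6), and of 130 member probes 109 were matched by accession and 21 by symbol. No probe was matched to Gapdh. Eif5a and Eif6 each stand in 2 lists. The script was tested on simulated data.

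Named members were Rplp0, Rplp1, Rplp2, Rpsa, Rps6, Rpl10, Rpl13a, Rps18, Rpl3 and Rps3, genes ending in l and those they resemble, the genes of the 8 highest and 8 lowest probes by the smaller ratio of both comparisons (6 probes were above 0 in both), genes whose probes differed by over 1, and the 5 brightest genes. Further members (Rpl17, Rpl30, Rps16, Rps7 and those in the flagged results) were named after their values were seen. The members and lists were chosen with earlier results of these data known. The median intensity of all probes was 325 in Cy3 and 347 in Cy5 on array 1 and 321 and 367 on array 2, over median backgrounds of 39.0 to 44.0. The number of arrays limits the precision. Alternatives were offset 0, no normalization, median centring, the scanner's and the deposited ratio, median signals, other filters on dim and saturated probes, 1 value for each gene and other member lists. The bounds without normalization and the shortened list of initiation factors were chosen after seeing the data. A few members enter the counts but are not described singly here.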

Additional observations from a re-analysis of the deposited data

Results flagged for a closer look

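A total of 8 of the 110 member probes lay above 0 in one comparison and below 0 in the other. Of all 32708 probes 8928 did so, and the differences were not tested. The KO over KO Tg ratio minus the KO over WT ratio (log2) was 0.27 for 1 probe of Rpl21, -0.19 for 1 of Rpl22, -0.61 for 1 of Rps18 and 0.14 for 1 of Rps24. It was 0.13 for Rps26, 0.32 for Rps27l, and 0.11 and -0.31 for 2 probes of Rps28.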

How the results depend on the processing

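The median of the member probes stayed below 0 in both comparisons under every alternative run. It was -0.95 (KO over WT) and -0.85 (KO over KO Tg) without normalization, -0.80 and -0.67 with median centring, and -0.61 and -0.53 when the ribosomal protein transcripts under other names took the members' place, an alternative chosen after seeing the data. The count at least 2-fold lower, 8 and 4 in the report, was 49 and 40 without normalization and 34 and 20 with median centring, and the cause was not tested. By gene, with fewer values, it was 4 and 2 for gene medians and 3 and 1 for the brightest probe. The count at least 2-fold higher in KO over KO Tg, 1 in the report, was 0 without normalization, 2 with the scanner's and 2 with the deposited ratio, and 0 and 0 by gene. Saturation of all probes on at least 1 array held for 9 genes, where 17 probes were saturated. Leaving out the 6 probes with any saturated pixel, also chosen after seeing the data, gave medians of -0.52 and -0.41. No paired analysis was possible because each comparison had 1 array. Of 76 ratios of single named probes, 8 changed sign without normalization, 5 with median centring and 0 with offset 0. Replicate arrays and a dye swap are not part of the data, so the spread between dams is unknown.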
